A study of Homo sapiens with 9 samples.

Results

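A set of 10 genes of the Hippo pathway and its output were followed through the libraries of the MDA-MB-453 breast cancer line, and they were taken by symbol from the gene table, which lists 59452 genes. These are the coactivators *YAP1* and *WWTR1* (the gene of TAZ), the pathway genes *LATS2*, *AMOTL1*, *AMOTL2* and *AJUBA*, and the targets *CCN1*, *CCN2*, *CRIM1* and *AXL*. All 10 were found, and 9 of them were among the 15528 genes with enough counts to be tested, *AXL* being the exception. Cells of 1 wild-type line were grown for 48 hours in 3 conditions with 3 libraries each. The conditions were attached culture with vehicle (DMSO), forced suspension on plates coated with poly-HEMA with vehicle, and the same suspension with 10 µM AT0174. Poly-HEMA is a polymer that keeps cells from adhering, and AT0174 is an inhibitor of TDO2 and IDO1, the enzymes that open tryptophan catabolism. Attached cells with AT0174 are not analysed here, so an effect of the inhibitor was measured only in suspension. The question was whether the output of YAP and TAZ is lower in detached cells, and whether the inhibitor moves it.

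In the Hippo pathway the kinases MST1 and MST2 activate LATS1 and LATS2, which phosphorylate YAP and TAZ and so hold them in the cytoplasm or mark them for degradation. When LATS activity is low, as in spread cells that pull on their substrate, YAP and TAZ enter the nucleus, bind TEAD transcription factors and switch on genes such as *CCN1*, *CCN2* and *CRIM1*. Some targets feed back on the pathway, among them *LATS2*, *AMOTL2* and *AJUBA*. YAP and TAZ are regulated largely as proteins, which RNA counts do not measure.

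The values are the estimated counts that the authors made with Salmon, which assigns reads to annotated transcripts, summed by gene. Here they are given as CPM, a count scaled to a common library total, after TMM scaling of the library sizes, and the libraries held 36649997 to 48019126 estimated counts. Changes are log2 fold changes with their standard error (SE) from 1 edgeR quasi-likelihood fit of all 9 libraries, and a gene was called at a Benjamini–Hochberg adjusted p under 0.05 over all genes tested. The study's methods describe the libraries as biological triplicates, but the labels do not say what separates them, so the p-values measure the spread between these samples. In bulk RNA, fewer cells with a transcript and less of it per cell cannot be told apart. The labels call the line triple-negative. The luminal epithelial markers *EPCAM*, *KRT8*, *KRT18*, *KRT19*, *FOXA1*, *GATA3* and *SPDEF* were detected (*FOXA1* at 589 CPM in attached cells), and *FOXA1*, *SPDEF* and *KRT19* were called higher in suspension, by 0.14 to 0.26 on the log2 scale. *ERBB2*, the HER2 receptor gene, lay near 1052 CPM in attached cells, and *PGR*, the progesterone receptor gene, near 0.32 CPM. Of 8 markers of fibroblast, immune, endothelial or basal cells, 7 had no more than 8 counts in a library, and *COL1A1* alone was tested, at 137 CPM when attached and 113 CPM when suspended (log2 fold change −0.28, adjusted p 0.00182).

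Promoter sequences are shown for textbook targets and for members called lower on detachment. Each sequence shown holds the letters GGAATG, the core of the TEAD binding site. The RefSeq table for GRCh38.p14, with 250 bases before and 50 after each start, held 8 of the 10 members with 12 start sites between them. *CCN1* and *CRIM1* had no entry and were not searched. GGAATG on either strand was found at 6 of these 12 start sites (*YAP1*, *CCN2*, *AMOTL2*, *LATS2*, *AJUBA* and *AXL*), and it stands in 14.03% of all 35116 promoters in the table. The AP-1 letters TGANTCA, on either strand, were found at 0 of the 12 and in 7.71% of all promoters. The *CCN2* promoter holds 3 matches that begin at −169, −104 and −95 from the start, the second *AMOTL2* start site 1 at −69 on the opposite strand, the second *AJUBA* start site 1 at −59, and *LATS2* 1 at +10, inside the transcribed part. The first start sites of *AMOTL2* and *AJUBA* held 0 matches. Which start site the measured transcripts used was not examined. A match describes letters, and binding was not measured. The 4 windows lie on the minus strand at chr6:131951323-131951622 (*CCN2*), chr3:134374398-134374697 (*AMOTL2*, the second start site), chr13:21061537-21061836 (*LATS2*) and chr14:22976793-22977092 (*AJUBA*, the second start site). They are written 5′ to 3′ along the gene, with each match in capitals.
CCN2: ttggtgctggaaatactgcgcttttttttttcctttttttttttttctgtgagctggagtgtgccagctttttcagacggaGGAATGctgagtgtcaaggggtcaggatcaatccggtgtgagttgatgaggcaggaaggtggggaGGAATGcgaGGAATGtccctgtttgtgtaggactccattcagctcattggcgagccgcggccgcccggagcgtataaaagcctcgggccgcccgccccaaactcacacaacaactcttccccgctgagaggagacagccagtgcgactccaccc
AMOTL2: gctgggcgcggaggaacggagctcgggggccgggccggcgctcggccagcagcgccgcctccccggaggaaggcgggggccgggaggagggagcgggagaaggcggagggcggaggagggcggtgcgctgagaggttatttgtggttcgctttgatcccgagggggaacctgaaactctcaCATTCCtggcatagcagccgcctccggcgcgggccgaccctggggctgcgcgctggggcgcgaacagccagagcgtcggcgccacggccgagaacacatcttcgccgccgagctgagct
LATS2: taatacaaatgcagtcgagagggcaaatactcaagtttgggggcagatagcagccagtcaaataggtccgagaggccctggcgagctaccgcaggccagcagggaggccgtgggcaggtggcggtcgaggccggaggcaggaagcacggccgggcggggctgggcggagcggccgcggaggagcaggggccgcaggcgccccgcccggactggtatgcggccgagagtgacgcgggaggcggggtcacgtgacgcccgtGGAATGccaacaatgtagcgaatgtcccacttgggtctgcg
AJUBA: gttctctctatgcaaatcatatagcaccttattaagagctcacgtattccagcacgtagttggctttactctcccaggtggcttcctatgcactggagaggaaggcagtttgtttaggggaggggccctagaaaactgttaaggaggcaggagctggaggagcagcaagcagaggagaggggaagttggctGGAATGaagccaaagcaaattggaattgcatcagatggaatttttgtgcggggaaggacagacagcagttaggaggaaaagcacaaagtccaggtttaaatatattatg

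On detachment, 5 of the 9 tested members were called lower (*CRIM1*, *AJUBA*, *AMOTL2*, *LATS2* and *AMOTL1*), 0 were called higher and 4 did not pass the test. Over all genes, 10.8% were called lower and 10.4% higher. The members were chosen with earlier results of these data known, so their count is not that of an unselected set. In 6 of the 9 the suspended and attached libraries did not overlap, against 38.1% of all genes tested. The median log2 fold change of the 9 was −0.34, beside a median of −0.00025 over all genes. The coactivator genes and the 2 CCN genes were the members not called.

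**Figure D1:**
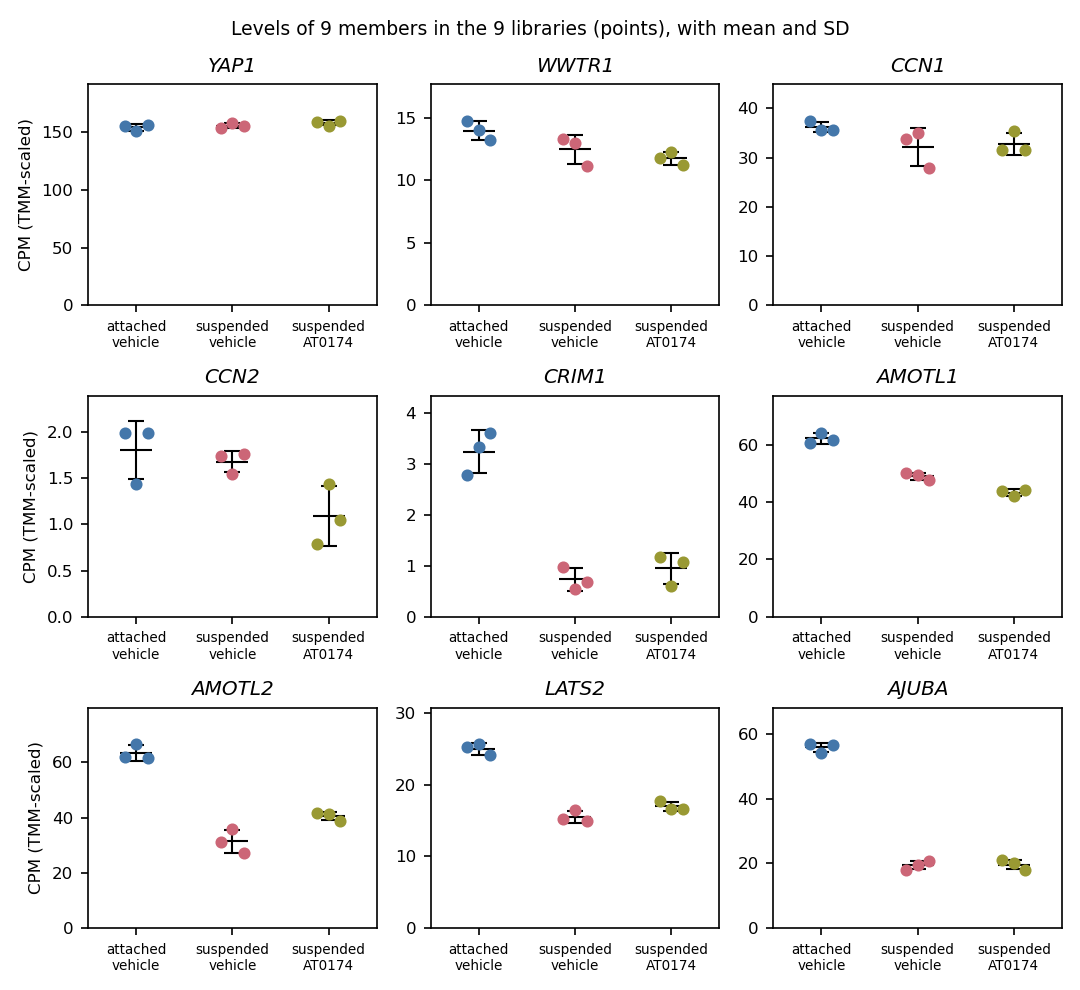
CPM (TMM-scaled, linear axis from 0) of the 9 tested members in each of the 9 libraries; points are libraries, and the bars mark the mean and SD of 3. *AJUBA*, *AMOTL2*, *LATS2*, *AMOTL1* and *CRIM1* are lower in all 6 suspended libraries than in every attached one, whereas *YAP1* stays between 151 and 159 CPM throughout.

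*YAP1* (ENSG00000137693, chr11:102110447-102233424, GRCh38), the gene of the coactivator YAP, was steady. Its levels were 155, 151 and 156 CPM in attached cells, 154, 158 and 155 CPM in suspension with vehicle, and 159, 155 and 159 CPM with AT0174. The 3 groups overlapped. On detachment the log2 fold change was 0.01 (SE 0.029, 95% interval −0.05 to 0.08, adjusted p 0.772), so that a change of the size seen in *AMOTL1* lies outside the interval. With AT0174 the log2 fold change was 0.02 (95% interval −0.04 to 0.08, adjusted p 0.896).

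*WWTR1* (ENSG00000018408, chr3:149517235-149736714), the gene of TAZ, was far lower than *YAP1* on the same scale. It had 14.72, 14.03 and 13.18 CPM in attached cells, 13.3, 13.0 and 11.2 CPM in suspension, and 11.8, 12.3 and 11.2 CPM with AT0174. One suspended library lay above the lowest attached one, so the groups overlapped. Detachment gave a log2 fold change of −0.16 (SE 0.075, 95% interval −0.33 to 0.00) with an adjusted p of 0.147 by edgeR, and that with AT0174 was −0.09 (adjusted p 0.818).

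Of the members that act on the pathway, *AJUBA* (ENSG00000129474, chr14:22971177-22982551) had the smallest p. It encodes a LIM-domain protein of adherens junctions that binds LATS kinases and restrains them. Its levels were 56.7, 54.0 and 56.5 CPM in attached cells, 18.1, 19.6 and 20.7 CPM in suspension, and 20.9, 20.1 and 18.0 CPM with AT0174. The attached libraries stood far above all 6 suspended ones. Detachment gave a log2 fold change of −1.52 (SE 0.060, adjusted p 2.59e-08), a 2.86-fold fall, and that with AT0174 was 0.01 (95% interval −0.12 to 0.15, adjusted p 0.979).

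*AMOTL2* (ENSG00000114019, chr3:134355347-134375479), an angiomotin family member that binds YAP and is itself a target, fell 2.02-fold on detachment. It had 62.1, 66.6 and 61.5 CPM in attached cells, 31.2, 35.8 and 27.2 CPM in suspension, and 41.8, 41.2 and 39.0 CPM with AT0174. The 3 groups did not overlap, with the AT0174 libraries between the other two groups. Its log2 fold change on detachment was −1.01 (SE 0.077, adjusted p 5.40e-06). *AMOTL1* (ENSG00000166025, chr11:94706431-94876748), its paralog, changed less. It had 60.6, 64.1 and 61.6 CPM in attached cells, 50.0, 49.3 and 47.6 CPM in suspension, and 43.8, 42.0 and 44.0 CPM with AT0174. Here too the 3 groups did not overlap, but the AT0174 libraries were the lowest. Its log2 fold change on detachment was −0.34 (SE 0.039, adjusted p 0.000151), a 1.27-fold fall, which a 1.5-fold minimum would leave out.

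*LATS2* (ENSG00000150457, chr13:20973036-21061586), a kinase that phosphorylates YAP and TAZ and is induced by them, had 25.2, 25.6 and 24.1 CPM in attached cells, 15.2, 16.4 and 14.9 CPM in suspension, and 17.7, 16.5 and 16.6 CPM with AT0174. Every attached library was above every suspended one. On detachment the log2 fold change was −0.69 (SE 0.054, adjusted p 6.62e-06), a 1.61-fold fall. Its paralog *LATS1* had a log2 fold change of 0.11 (SE 0.037), from 44.7 to 48.4 CPM on average, and stood at the threshold, with an adjusted p of 0.0444 by edgeR, 0.0474 by limma-voom and 0.0902 by DESeq2. The difference between the paralogs was not tested.

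Among the secreted and membrane targets, *CRIM1* (ENSG00000150938, chr2:36355778-36551135), a transmembrane protein that binds bone morphogenetic proteins, had the largest fold change of the members and low counts. It had 106, 120 and 140 counts in attached cells, 38, 24 and 30 counts in suspended cells, and 57, 25 and 47 counts with AT0174. These correspond to 2.77, 3.32 and 3.60 CPM, to 0.98, 0.54 and 0.68 CPM, and to 1.18, 0.60 and 1.07 CPM. The log2 fold change on detachment was −2.14 (SE 0.269, adjusted p 0.000348), a 4.41-fold fall whose 95% interval ran from −2.72 to −1.56 on the log2 scale. *AXL* (ENSG00000167601, chr19:41219223-41261766), a receptor tyrosine kinase, had 0 counts in the 3 attached libraries, 0, 0 and 2 in suspended cells, and 3, 0 and 3 with AT0174. By counting error alone a library at 0 could hold up to 3 counts, which is 0.0625 to 0.0819 CPM. No library exceeded that limit, and no fold change is given.

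*CCN2* (ENSG00000118523, chr6:131948176-131951372), a matricellular protein also called CTGF and one of the most used readouts of YAP and TAZ, was barely expressed. It had 76, 52 and 77 counts in attached cells, 67, 68 and 77 counts in suspended cells, and 38, 60 and 46 counts with AT0174. The attached and suspended groups overlapped, at 1.80 ± 0.315 and 1.68 ± 0.116 CPM (SD, n = 3). The log2 fold change on detachment was −0.11 (SE 0.224, adjusted p 0.779 by edgeR), with a 95% interval from −0.60 to 0.38, so a fall of the size of that of *LATS2* lies outside the interval and one of the size of that of *AMOTL1* inside it. LINC01013 covers 11.9% of its exon bases on the other strand. Whether the counting used strand is not given in the sources used here, so it is not known whether reads of the 2 genes were told apart there. The same limit holds for *YAP1*, with 9.95% of its exon bases covered by ENSG00000254422, and for *WWTR1*, with 9.05% covered by WWTR1-AS1.

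*CCN1* (ENSG00000142871, chr1:85580761-85584589), the related protein also called CYR61, had 37.4, 35.6 and 35.6 CPM in attached cells, 33.8, 35.0 and 27.9 CPM in suspension, and 31.5, 35.5 and 31.6 CPM with AT0174. The attached and suspended groups with vehicle were narrowly apart. The log2 fold change was −0.17 (SE 0.076, 95% interval −0.33 to −0.0045) and was not called (adjusted p 0.136 by edgeR). The direction depended on the unit. The summed TPM of the gene was 23.6 ± 0.868 in attached and 25.6 ± 3.38 in suspended cells (SD, n = 3), with overlapping ranges, and counts rebuilt from TPM gave a log2 fold change of 0.021 (adjusted p 0.924), whereas without a filter on low counts the gene was called lower (−0.16, adjusted p 0.021). *CCN1* is also known as an immediate-early gene, one of those that serum and stress switch on within minutes.

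**Figure D2:**
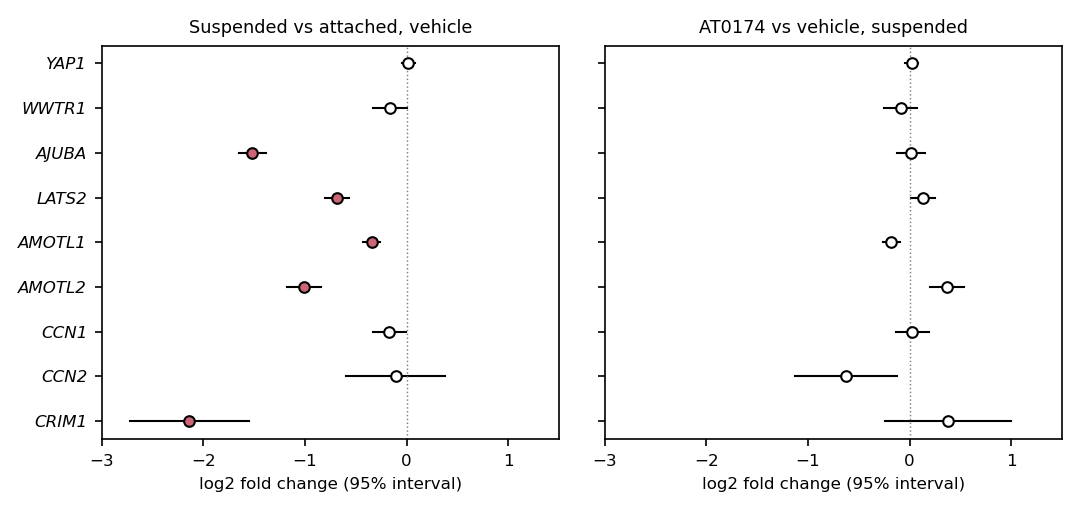
Log2 fold changes of the 9 tested members with 95% intervals from the edgeR fit, for suspended against attached cells with vehicle (left) and for AT0174 against vehicle in suspension (right); filled points were called at an adjusted p under 0.05. On the left 5 members are filled and all lie below 0, and on the right 0 are.

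The gene-level value of *CCN1* summed transcripts that moved in opposite directions. The transcript table gives TPM, a level corrected for transcript length and scaled to the same total in every library. The protein-coding transcript ENST00000451137 (2278 bases) had 22.52, 21.95 and 20.97 TPM in attached cells, 16.5, 17.0 and 15.5 TPM in suspended cells, and 17.45, 15.99 and 17.12 TPM with AT0174. All 6 suspended libraries were below all attached ones. The transcripts annotated as retaining an intron summed to 1.97, 1.16 and 1.63 TPM in attached cells, 5.58, 6.84 and 3.52 TPM in suspended cells, and 3.62, 6.46 and 3.91 TPM with AT0174. A short transcript without a defined coding sequence, ENST00000480413 (551 bases), had 0, 0 and 0.46 TPM in attached cells, 5.32, 3.78 and 2.67 TPM in suspended cells, and 1.73, 4.45 and 2.09 TPM with AT0174. The coding transcript thus made up 92.5% ± 2.17 of the *CCN1* TPM in attached cells, 64.4% ± 6.10 in suspended cells and 70.0% ± 9.24 with AT0174 (SD, n = 3).

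**Figure D3:**
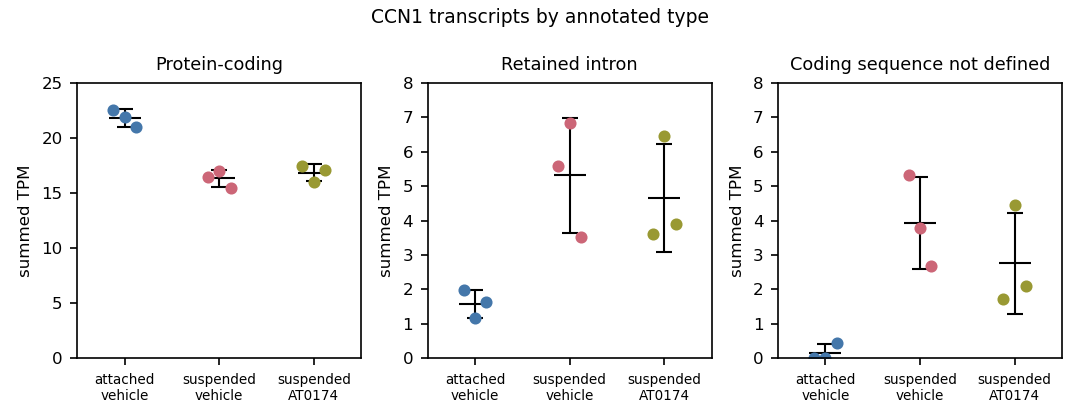
TPM of *CCN1* in each library, summed over the protein-coding transcript, the transcripts with a retained intron and the transcript without a defined coding sequence; points are libraries, bars the mean and SD of 3, and the first axis reaches 25 TPM and the other axes 8. The coding transcript lies between 15.5 and 17.5 TPM in the 6 suspended libraries and above 20 TPM in the attached ones, and both other classes are higher in every suspended library than in every attached one.

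When the counts of each gene were split into coding and other transcripts and refitted together, an alternative added after the data had been seen, the coding transcript of *CCN1* fell from 33.9 ± 0.674 to 23.5 ± 1.28 CPM (SD, n = 3), a log2 fold change of −0.53 (SE 0.053, adjusted p 0.0012 by edgeR). In that fit 4.25% of the coding values were called lower. The other transcripts of *CCN1* rose from 2.57 ± 0.581 to 8.98 ± 2.57 CPM, by 1.80 on the log2 scale (SE 0.302, adjusted p 0.011), where 1% of such values were called higher. The other 5 members called lower stayed so for their coding transcripts, from −0.35 in *AMOTL1* to −2.13 in *CRIM1*, so 6 of the 9 were lower by coding counts. The share of TPM outside coding transcripts rose by 28.1 percentage points in *CCN1*, the largest rise among 7939 genes with at least 5 TPM in every library and a non-coding transcript, of which 76 rose by 10 points or more and whose median change was −0.74 points. Over whole libraries, transcripts with a retained intron made up 7.10% to 7.64% of TPM in attached cells and 6.80% to 6.91% in suspended cells with vehicle. How reads are divided between overlapping transcripts is an estimate of Salmon, whose uncertainty is not included in these values.

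Levels of different members can be compared per length. In attached cells *YAP1* led, at 79.5 to 80.9 TPM, followed by *AMOTL2* at 28.2 to 30.7 TPM, *CCN1* at 23.1 to 24.6 TPM and *AJUBA* at 21.9 to 24.3 TPM. *AMOTL1* (9.49 to 10.1 TPM), *WWTR1* (8.02 to 9.59 TPM) and *LATS2* (6.01 to 6.88 TPM) came next, with *CCN2* (0.91 to 1.27 TPM) and *CRIM1* (0.65 to 0.97 TPM) lowest. The ranges of 3 neighbouring pairs overlapped, those of *CCN1* and *AJUBA*, of *AMOTL1* and *WWTR1*, and of *CCN2* and *CRIM1*. In suspended cells with vehicle *AJUBA* had dropped to 8.31 to 8.79 TPM, a range that overlapped with those of *AMOTL1* and *WWTR1*, and *CCN1* stood above *AMOTL2*.

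Of the other members, *YAP1* was carried mainly by ENST00000531439, ENST00000282441 and ENST00000629586, with mean shares over the 9 libraries of 32.5%, 26.4% and 14.8% of its TPM. *WWTR1* was led by ENST00000467467 with 57.1% and ENST00000360632 with 26.1%, *AJUBA* by ENST00000262713 with 59.0%, and *AMOTL2* by ENST00000422605 with 40.1%. The leading *AMOTL2* transcript held 39.5% of the gene in attached and 39.7% in suspended cells. *LATS2* was nearly all ENST00000382592 (99.3%), and *CCN2* has a single annotated transcript. *CRIM1* was led by ENST00000280527, whose share was 89.4% ± 10.8 in attached cells, 100% in each suspended library with vehicle and 63.1% ± 40.0 with AT0174 (SD, n = 3). In the 3 AT0174 libraries that share was 20.6%, 68.7% and 100%, on a transcript level between 0.14 and 0.26 TPM. In the first of them ENST00000497236 (240 bases) held 51.1% of the *CRIM1* TPM on 2 counts, so these shares rest on few reads.

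The inhibitor was compared with vehicle in suspended cells, and this contrast shares the 3 vehicle libraries in suspension with the contrast of detachment. Of the 9 members 0 were called in either direction by edgeR, beside 0.258% of all genes tested called lower and 0.522% called higher. DESeq2 called 2 of the 9 members (*AMOTL1* lower and *AMOTL2* higher), and limma-voom called 1 (*AMOTL2* higher). The shares of all genes that these 2 tools called are not given here, and the edgeR shares do not stand for them. The groups did not overlap for 4 members (*CCN2* and *AMOTL1* lower, *AMOTL2* and *LATS2* higher), against 15.4% of all genes. The median log2 fold change of the 9 was 0.02.

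The 2 angiomotin genes lay on opposite sides of 0 with AT0174, and both stood close to the threshold. *AMOTL2* had a log2 fold change of 0.37 (SE 0.077, adjusted p 0.0509), and the adjusted p ranged from 4.11e-11 to 0.426 over the alternatives. Without the second suspended vehicle library, the highest of its group, it was 0.47 (adjusted p 0.00533). With AT0174 its mean was 129% of that in suspension with vehicle and 64.1% of the attached mean. *AMOTL1* had −0.18 (SE 0.039, adjusted p 0.0621, range 0.0223 to 0.285), and its mean with AT0174 was 69.6% of the attached mean. The AT0174 and attached groups were not tested against each other.

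*CCN2* had a log2 fold change of −0.63 with AT0174 (SE 0.231, 95% interval −1.13 to −0.13, adjusted p 0.386), at 1.09 ± 0.325 CPM (SD, n = 3), or 60.3% of the attached mean. The value rests on the 38, 60 and 46 counts given above. *LATS2* had 0.13 (SE 0.055, adjusted p 0.478), *CCN1* 0.03 (adjusted p 0.960) and *CRIM1* 0.38 (SE 0.285, adjusted p 0.771). None of these passed the test. With counts rebuilt from TPM the value of *CRIM1* was 1.65 (adjusted p 0.570), and with single libraries left out it lay between 0.19 and 0.63.

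The other genes of the pathway were counted without the 10 members. On detachment edgeR called 10.8% of all genes tested lower and 10.4% higher, and the counts of each list below stand beside these shares. The shares for DESeq2 and limma-voom are not given here. The lists too were chosen with earlier results of these data known. Of 35 tested genes of the Hippo pathway, 9 were called lower and 2 higher on detachment, with a median log2 fold change of −0.04. DESeq2 called 8 lower and 1 higher, and limma-voom 8 lower and 2 higher. *PTPN14*, a phosphatase that binds YAP, was lower by −0.50 (SE 0.056, adjusted p 0.00015), and *NF2*, the gene of merlin, an activator of LATS at the membrane, by −0.25 (adjusted p 0.000412). The kinase genes *TAOK3* (−0.44) and *MAP4K5* (−0.19) were also lower, and *TAOK1* (0.22) and *LATS1* were higher. Named outside the rule after their values had been seen, 2 genes of the TEAD factors themselves were called lower, *TEAD1* by −0.52 from 3.66 to 2.55 CPM (adjusted p 0.0125) and *TEAD3* by −0.12 from 112 to 103 CPM (adjusted p 0.0473). The list also holds *TEAD2* and *TEAD4*, whose values are not given here, so these 2 genes do not describe the TEAD genes as a group.

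Beyond the 6 members that it holds, a pan-cancer list of YAP and TAZ targets had 11 tested genes among 16. Of these 6 were called lower and 1 higher on detachment, with a median of −0.28, and DESeq2 called 5 lower and 1 higher. *MYOF*, a membrane repair protein, fell from 33.2 to 19.8 CPM (log2 fold change −0.74, SE 0.055, adjusted p 4.26e-06), and *ARHGEF17* (−0.34) and *ASAP1* (−0.28), regulators of small GTPases, fell with *PTPN14*, whereas *IGFBP3*, which binds insulin-like growth factors, rose by 0.41 (SE 0.097, adjusted p 0.0107). Of 14 further targets 7 were tested, of which 2 were called lower and 1 higher, with a median of 0.06 and 4 of the 7 values above 0. *EDN1*, the gene of endothelin, fell by 1.24 on the log2 scale (SE 0.109, adjusted p 1.93e-05), *ARHGAP29*, a GTPase-activating protein, by 0.26, and *THBS1*, the gene of the matrix protein thrombospondin, rose by 0.23 from a level of 1751 CPM.

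Of 17 tested genes of actin and of its transcription factor SRF, which also respond to adhesion, 5 were called higher and 1 lower on detachment, and 11 were not called (median 0.04). *ACTG1*, a cytoplasmic actin, rose by 0.31 (SE 0.041, adjusted p 0.000484), *VCL*, the gene of vinculin, by 0.16, *TAGLN2*, an actin binder, by 0.20 and *FHL2*, a LIM-domain coactivator at about 1 CPM, by 1.22, whereas *TPM2*, a tropomyosin, was lower by −1.23. Of 17 tested genes of integrins and their adaptors, 0 were called higher by edgeR and 4 lower, while DESeq2 and limma-voom each called 1 higher. *FERMT2*, the gene of the integrin activator kindlin-2, fell from 51.33 to 27.98 CPM (log2 fold change −0.88, SE 0.073, adjusted p 1.13e-05), with smaller falls of *PXN* (−0.26), *ITGB4* (−0.18) and *ITGA3* (−0.17). Of 11 tested immediate-early genes 7 were called higher and 0 lower, by edgeR, DESeq2 and limma-voom alike. *FOS* rose from 0.75 to 34.6 CPM (log2 fold change 5.54, SE 0.388, adjusted p 2.89e-06), *DUSP1* by 1.45, *EGR1* by 0.96 and *JUNB* by 0.57. Their part in the values of *CCN1* was not tested.

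**Figure D4:**
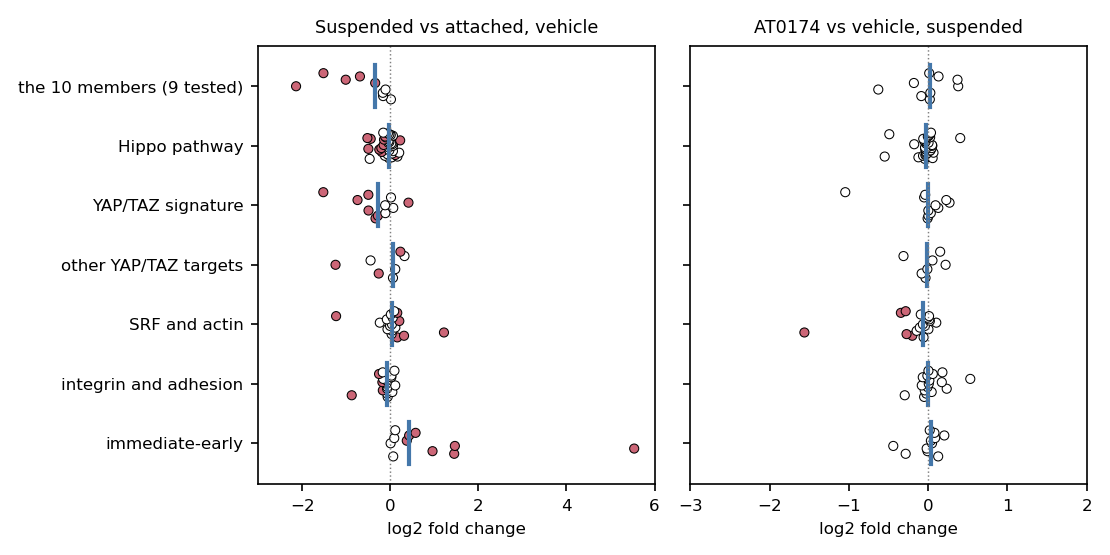
Log2 fold changes of the tested genes of each list without the 10 members, and of the 9 tested members, on detachment (left) and with AT0174 in suspension (right on a narrower axis); each point is a gene, filled where called, and the bar is the median. On the left the medians run from −0.34 for the members to 0.43 for the immediate-early genes, and on the right only genes of actin and SRF are filled.

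With AT0174, edgeR called 0 genes of the Hippo, YAP and TAZ target, integrin and immediate-early lists. DESeq2 called 1 integrin gene higher and 1 lower and 0 in the other lists, and limma-voom 0. The 2 most abundant genes of each of these lists (*TAOK2*, *SCRIB*, *IGFBP3*, *DOCK5*, *THBS1*, *BIRC5*, *TLN1*, *ITGA3*, *JUNB* and *IER3*) had log2 fold changes between −0.04 for *ITGA3* and 0.27 for *IGFBP3*. The actin and SRF list was the exception. Of its 17 tested genes 5 were called lower and 0 higher, among them *VCL* (−0.34, SE 0.028, adjusted p 3.7e-05), *CNN2* (−0.27), an actin-binding calponin, *ZYX* (−0.28), the gene of the focal adhesion protein zyxin, and *FHL2* (−1.56, SE 0.249, adjusted p 0.0101). DESeq2 and limma-voom each called 6 lower. Of all genes tested, edgeR called 0.258% lower with AT0174.

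The genes most like each called member were sought among 9364 genes with at least 10 CPM on average, by the root mean square difference of their log2 CPM over the 9 libraries after each gene was centred on its own mean. *AJUBA* was closest to *SLITRK6* (0.109), *SLCO2A1* (0.124) and *LAMB1* (0.165). *CRIM1* had the same 3 nearest genes at larger distances, 0.337 for *SLCO2A1*, 0.342 for *LAMB1* and 0.415 for *SLITRK6*. *LAMB1*, the gene of a laminin chain, went from 24.0 to 7.03 CPM on detachment. *AMOTL1* was closest to *ADAM22* (0.0506), *LAMC1* (0.0525), the gene of another laminin chain, and *ZBED3* (0.0603). *AMOTL2* was closest to *TNS3* (0.105), the gene of a tensin of focal adhesions, *CYFIP2* (0.123) and *S100A10* (0.134), and *LATS2* to *KRT80* (0.0644), *KIF5C* (0.069) and *TSPAN4* (0.0802). These distances describe the 9 libraries, which share their conditions.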

How the data were processed

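MDA-MB-453 RNA was sequenced in 9 libraries, 3 per condition. The labels name a SMARTER mRNA kit and the study's methods the Universal Plus mRNA kit. According to the submitters' processing notes and the methods, reads were trimmed with Trim Galore 0.6.7 (cutadapt 3.4), aligned with STAR 2.7.9a to GRCh38 and quantified with Salmon 1.10.1. The estimated counts deposited per gene are sums over transcripts without normalization. The TPM deposited per transcript are scaled by effective length to a fixed total. No sample column was left unused.

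Estimated counts were rounded, filtered with filterByExpr (15528 genes), scaled by TMM and fitted with edgeR 4.0.16 (R 4.3.3) over all 9 libraries with condition as the only term. Each SE was obtained from the fold change and its F statistic (log2 fold change over the root of F). The study used limma on CPM; limma-voom (limma 3.58.1), DESeq2 1.42.0 and the settings in the closing section were alternatives. Splitting coding from other transcripts was added after the data had been seen. The script was tested on simulated data.

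The members, lists and tests were chosen with earlier results of these data known. Named from each list were at most 4 called genes per direction by smallest adjusted p, or, with fewer than 2 called, the 2 most abundant. A marker of the luminal list is not reported here. Gene positions and transcript types come from GENCODE 44, and promoters from RefSeq for GRCh38.p14, in which 8 of 10 members matched. Motifs were searched by letters on both strands. The limit for a count of 0 is 3 counts and covers counting error only.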

Additional observations from a re-analysis of the deposited data

How the results depend on the processing

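On detachment, the 5 members called lower numbered 5 whichever library was left out (1010 to 1683 of all genes), 4 with a 1.5-fold minimum (without *AMOTL1*), 6 with no filter on low counts (with *CCN1*, adjusted p 0.021) and 6 for coding transcripts, and 0 were called higher under the 20 alternatives. With AT0174, 1 member was called lower (*AMOTL1*) under DESeq2, with no filter and with a 10-count minimum per library, and 1 higher (*AMOTL2*) under DESeq2, limma-voom, with no filter, with the 10-count minimum and with a replicate block. The shares of all genes called under these settings are not given here. Leaving out single libraries gave 0 to 1 members higher (42 to 85 of all genes) and 0 lower (18 to 43). The 1 came without the second suspended vehicle library. The labels do not say whether same-numbered samples were prepared together. Correlations of same-numbered deviations lay between −0.0652 and 0.0526, and those of differently numbered ones between −0.0862 and 0.0886. With 3 libraries per group these values cannot decide whether the samples were paired. With the replicate block *AMOTL2* had 0.38 (adjusted p 0.0142), and no other member's call changed. Several uncalled values changed sign. With counts rebuilt from TPM, *CCN1* had 0.021 on detachment, and with AT0174 *YAP1* had −0.016, *WWTR1* 0.0034 and *CCN1* −0.034. With single libraries left out, *YAP1* ranged from −2.03e-05 (without the second attached library) to 0.025 on detachment, and with AT0174 *CCN1* from −0.070 (without the third suspended vehicle library) to 0.090 and *AJUBA* from −0.039 (without the first suspended vehicle library) to 0.069. *CCN1* was also below 0 without the second AT0174 library, and *AJUBA* without the first and, at −0.11, for coding transcripts. That last value leaves out ENST00000361265 of *AJUBA*. Rebuilding from TPM also moved *CRIM1* with AT0174 from 0.38 to 1.65, uncalled. The cause was not tested. Of 180 member values per contrast under the alternatives, 175 on detachment and 163 with AT0174 kept their direction and their side of the threshold. Depth limits *CCN2*, *CRIM1* and *AXL* most. No setting moved the median of all genes by over 0.1.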
